A study of Mus musculus with 9 samples.

Results

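The Bmal1-/- arrays of a chromosome conformation capture-on-chip (4C) series on the mouse Dbp locus were compared between circadian time (CT) 22 and CT34. They are the 2 arrays, of 9 in all, that the labels assign to Bmal1-/- cells at these times, with 1 array per time and no replicate. The cells were mouse embryonic fibroblasts, which grow out of minced embryonic tissue and carry a cell-autonomous clock, taken at embryonic day 13. All cultures of the series received dexamethasone, a glucocorticoid that sets the clocks of the cells to a common phase, for 2 h and were harvested the stated number of hours after the wash. The other arrays were 5 of wild-type (WT) line 1, at CT22, CT26, CT30, CT34 and CT46, and 2 of WT line 2, at CT22 and CT34.

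Per the labels, the lines derive from C57BL/6 mice. Line 1 and the Bmal1-/- cells descend from siblings of the same cross and, by the growth protocol, were grown in the same mixture of newborn calf serum, heat-inactivated fetal bovine serum and amino acids. The sample descriptions name heat-inactivated fetal bovine serum and amino acids without newborn calf serum. Line 2 came from another cross and was grown in fetal bovine serum alone. A single Bmal1-/- line was used, so the genotype is seen in 1 culture lineage. In the deposited headers the line 2 arrays carry 24 and 36 in their names in place of 22 and 34, and the array of line 1 at CT26 and both Bmal1-/- arrays share a naming style that the other line 1 arrays lack. The labels do not say whether either naming marks a difference in handling.

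Dbp encodes a PAR bZIP transcription factor and is a direct target of the clock: the CLOCK-BMAL1 heterodimer binds E-box elements in the gene and drives its daily transcription. Bmal1 (Arntl) encodes the partner of CLOCK, and its loss abolishes the transcriptional oscillator. In 4C, fragments crosslinked near a chosen locus, the viewpoint, are ligated to it and amplified, so that the abundance of a fragment reads its contact frequency with that locus. The comparison asked by how much the contact map of Dbp differed between 2 times of the day in cells without Bmal1.

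On the arrays, 4C DNA was labelled with Cy5 and digested genomic DNA of the same cells with Cy3, and each probe carries a log2 ratio of these. Each array held 384942 probes, 364430 of them on autosomes and 19355 on chromosome 7, which carries the viewpoint. The ratios were turned into percentile ranks within each array, from 0 for the lowest to 100 for the highest, and averaged over windows of 1 Mb with at least 50 probes. Of 2410 autosomal windows with any probe, 2370 were used, 2237 off chromosome 7 and 133 on it, with medians of 157 and 152 probes. The change was the mean rank at CT34 minus that at CT22, in rank points. A change was counted as past the line 1 range where its size exceeded the difference between the highest and the lowest of the 5 line 1 arrays at the same place. These arrays span 5 circadian times, so their range includes whatever time does in WT cells, and it is no replicate error of the Bmal1-/- line. With 1 array per time no test was made and no value below has a p-value.

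Off chromosome 7 the Bmal1-/- arrays differed from each other by more than any pair of line 1 arrays did. The SD of the change over the 2237 windows was 4.47 rank points, against 2.33 to 3.52 (median 2.61) for the 10 pairs of line 1 arrays and 1.77 for the line 2 pair. The 4 largest line 1 values all belonged to pairs with the CT26 array, and without those pairs the line 1 values ran from 2.33 to 2.70. The median size of the change was 3.24 rank points, against 1.52 to 2.50. In 630 windows (28.2% of 2237) it exceeded 5 rank points, with 323 higher and 307 lower at CT34. In line 1 pairs 73 to 355 windows did so (median 126), and in the line 2 pair 14.

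**Figure D1:**
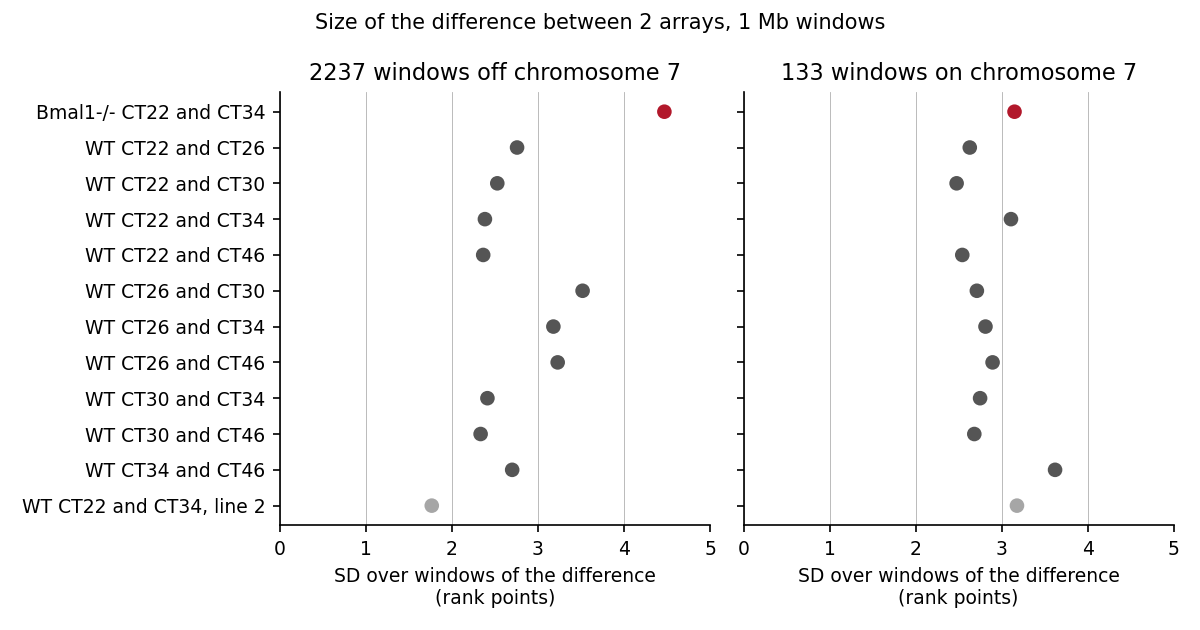
SD over 1 Mb windows of the difference between 2 arrays, in rank points, off chromosome 7 (left) and on it (right). Each point is 1 pair of arrays: Bmal1-/- in red, the 10 pairs of WT line 1 in dark grey and the WT line 2 pair in light grey. Off chromosome 7 the Bmal1-/- pair, at 4.47, lies beyond every WT pair, and on chromosome 7, at 3.15, it lies among them.

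The excess over every line 1 pair was seen in windows and not probe by probe. Over single probes off chromosome 7 the SD of the difference was 29.0 rank points in Bmal1-/-, inside the line 1 span of 24.1 to 30.5. Without the pairs with the CT26 array that span was 24.1 to 26.4, and Bmal1-/- lay above it. Windows built from odd-numbered probes and from even-numbered probes gave Bmal1-/- changes that correlated at r = 0.579 over 2237 windows, against 0.107 to 0.380 in line 1 pairs. The change of a window correlated with that of the next window at r = 0.567, against 0.107 to 0.425, and with that 5 windows away at r = 0.213, against -0.01 to 0.149. These are descriptions over windows that share their arrays. Nearby windows thus tended to change alike, and less so with distance. How much of this follows from the level of the windows, described below, was not tested.

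A window-by-window comparison with line 1 gave the same picture. Of the 2237 windows, 379 (16.9%) were higher at CT34 past the line 1 range and 411 (18.4%) were lower. A line 1 pair cannot pass its own range, but the line 2 pair can, and its CT34 minus CT22 change passed the line 1 range upwards in 48 windows (2.15%) and downwards in 61 (2.73%). The window means of line 2 spread less than those of the other arrays, with SDs of 3.80 at CT22 and 3.78 at CT34. Its counts therefore do not give the number to be met in a pair of arrays that spread as widely as line 1. The split depended on the scale. With log2 ratios centred on the median probe of each array, 706 windows were higher and 122 lower, and the median window moved by 0.08. With the same ratios centred on the median window off chromosome 7, the counts were 453 and 415. High probes were those above the 95th percentile of the array's probes off chromosome 7. Counting their share in place of the mean rank, only 112 windows (5.01%) were higher and 149 (6.66%) lower. This cut-off also served for such shares in distance bins, whole autosomes and the lists of highest windows.

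The array labelled Bmal1-/- CT22 stood apart from the other 6 arrays of line 1 and Bmal1-/-. The SD of its window means off chromosome 7 was 5.07 rank points, against 7.65 at CT34 and 6.96, 5.86, 7.76, 7.06 and 7.46 in line 1 at CT22, CT26, CT30, CT34 and CT46. Its flat profile lay below every line 1 array, with CT26 the nearest, whereas CT34 lay within the line 1 span. Its windows correlated with those of the 5 line 1 arrays at r = 0.688 to 0.759, and those of Bmal1-/- CT34 at r = 0.875 to 0.916. Line 1 pairs correlated at r = 0.895 to 0.954, and at 0.932 to 0.954 without the CT26 array. The CT34 values were thus also below the line 1 pairs without CT26. The header gave Bmal1-/- CT22 the lowest centring value, a biweight mean of -0.95, against -0.19 at CT34 and -0.61 to 0.03 in line 1. The SD of its log2 ratios, 0.92, was within the line 1 span of 0.82 to 0.93, and that of CT34 was 1.10. Every change below is a difference from this array, and what sets it apart from the others was not tested.

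The direction of the change followed the level of a window in WT cells. Windows that rank low in line 1 were lower at CT34 than at CT22 in Bmal1-/-, and windows that rank high were higher. When the windows off chromosome 7 were cut into 10 groups by the mean of the 5 line 1 arrays, the lowest group of 224 averaged 44.6 at CT22 and 39.6 at CT34 in Bmal1-/-, a change of -5.03, and 9 of 224 windows were higher at CT34. Line 1 averaged 39.5, 41.4, 37.8, 38.9 and 38.7 there, in order of time, so CT34 lay among the line 1 arrays and CT22 above all of them. The highest group averaged 58.1 at CT22 and 63.8 at CT34, a change of 5.70, and 219 of 224 windows were higher. Line 1 averaged 63.2, 60.6, 64.1, 62.8 and 63.7 there, so CT22 lay below all 5. In the fifth group the Bmal1-/- arrays were level, at 47.3 each, and 112 of 224 windows were higher.

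**Figure D2:**
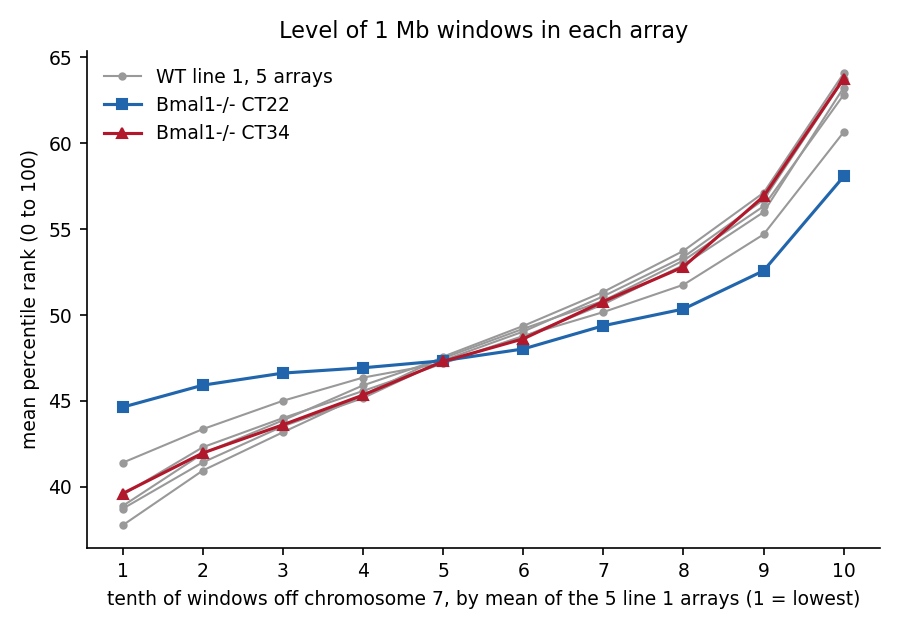
Mean percentile rank of windows off chromosome 7 in each array, for 10 groups of 223 or 224 windows ordered by the mean of the 5 WT line 1 arrays (group 1 lowest). Grey lines are the 5 line 1 arrays, blue squares Bmal1-/- CT22 and red triangles Bmal1-/- CT34. CT22 runs from 44.6 to 58.1, a flatter course than any line 1 array, and CT34, from 39.6 to 63.8, lies among them in 9 of the 10 groups and just below them in group 6.

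Over the 2237 windows the change correlated with the line 1 mean at r = 0.733, with a slope of 0.48 rank points per rank point. Line 2 arrays took no part in the line 1 mean, and against their mean the correlation was 0.686. Grouped by line 2, the change ran from -5.09 in the lowest group to 5.30 in the highest. The CT34 minus CT22 change of line 1 in the same groups ran only from -0.80 to 0.58. Regressed on the line 1 mean, Bmal1-/- CT22 had a slope of 0.55 and CT34 of 1.03, and each line 1 array against the mean of the other line 1 arrays had a slope of 0.76 (CT26) to 1.13 (CT30). On chromosome 7 the correlation of the change with the line 1 mean was 0.108 over 133 windows.

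Set against the line 1 values of each window, the larger part of these changes began at a CT22 value outside the line 1 interval. By construction, a change past the line 1 range puts at least 1 Bmal1-/- value outside that interval. This holds for the windows named below too. Of the 379 windows higher at CT34, 310 lay below every line 1 array at CT22 (81.8%), and at CT34 162 lay within the line 1 interval, 164 above it and 53 below it. Of the 411 windows lower at CT34, 352 lay above every line 1 array at CT22 (85.6%), and at CT34 193 lay within the interval, 171 below it and 47 above it. CT34 was nearer than CT22 to the line 1 mean in 277 of the 379 and in 306 of the 411. Over all 2237 windows, 760 lay within the interval at CT22, 724 below it and 753 above it. At CT34 1165 lay within it, 549 below it and 523 above it.

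In percentage points, and against the line 1 range, the shift was larger in the middle of the ranking than at its top. Shares above high percentiles are small, so a shift of the same proportion gives fewer percentage points there. In the highest group by line 1 level, 61.3% of 32418 probes exceeded the array's median at CT22 and 69.7% at CT34, a gain of 8.41 percentage points, and line 1 held 63.7% to 69.5%. Above the 95th percentile the shares were 8.10% and 9.26%, a gain of 1.16 against a line 1 range of 1.88. Above the 99th percentile they were 1.18% and 1.38%, again a gain, of 0.20, within the line 1 range of 0.53. In the lowest group the share above the median went from 42.1% to 35.2%, a change of -6.87, and that above the 95th percentile from 2.02% to 1.63%, a change of -0.39, within the line 1 range of 0.76. In these groups the probes of highest ratio, from which contacts are usually called, differed between the times by no more than line 1 arrays did among themselves, while probes near the median differed by more.

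With the part of the change that is linear in the line 1 level removed, the SD of the remaining change was 3.04 rank points, against 2.29 to 2.89 for line 1 pairs treated the same way. On that scale 225 windows were higher and 194 lower past the line 1 range. Both the removal and the count were added after the relation with level had been seen.

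Among windows higher at CT34 off chromosome 7, the largest change was on chromosome 17 from 34000001 to 35000000 (119 probes). Coordinates are those of the files, whose genome build is not given, so no genes are assigned to windows. The mean rank there was 57.8 at CT22 and 72.5 at CT34 in Bmal1-/-, and 66.6, 65.7, 70.5, 68.4 and 70.1 in line 1 in order of time. The change was 14.7 against a line 1 range of 4.79, with CT22 below all line 1 arrays and CT34 above them. The changed stretch took in 3 windows, up to 37000000.

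On chromosome 8 from 123000001 to 124000000 the rank was 55.0 at CT22 and 68.8 at CT34, and 63.9, 62.5, 71.6, 64.4 and 69.0 in line 1. The change of 13.8 exceeded the line 1 range of 9.15, and here CT34 fell inside the line 1 interval. This stretch took in 4 windows from 122000001 to 126000000. The window on chromosome 10 from 80000001 to 81000000 went from 65.3 to 77.9, a change of 12.7, with line 1 at 77.6, 75.7, 77.1, 70.4 and 77.2. CT22 lay below all of these, and the low line 1 value was that of CT34, so that line 1 itself changed by -7.19 between the same times.

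The other 3 of the 6 highest regions had lower levels. The window on chromosome 12 from 108000001 to 109000000 changed by 12.0, from 45.3 to 57.3, with line 1 between 51.2 and 58.0. On chromosome 8, the window from 11000001 to 12000000 changed by 11.9, from 43.2 to 55.0, with line 1 between 47.4 and 53.2. The window on chromosome 4 from 106000001 to 107000000 changed by 11.7, from 49.4 to 61.1, with line 1 between 55.4 and 60.3. In all 6 the CT22 value was below every line 1 array.

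The lowest change was on chromosome 13 from 87000001 to 88000000 (118 probes). The rank was 53.2 at CT22 and 40.9 at CT34, and 41.7, 39.7, 37.2, 39.2 and 39.6 in line 1. The change was -12.2 against a line 1 range of 4.46, with CT22 above all line 1 arrays and CT34 among them, in a stretch of 6 windows from 84000001 to 90000000. On chromosome 16 from 83000001 to 84000000 the rank was 47.2 and 35.7, a change of -11.5, with line 1 at 46.5, 42.7, 39.7, 40.4 and 42.8. CT22 there was just above the highest line 1 array and CT34 below the lowest.

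Of the remaining 4 lowest regions, the window on chromosome 15 from 47000001 to 48000000 changed by -11.3, from 49.4 to 38.2, with line 1 between 35.1 and 42.6. On chromosome 1, the window from 141000001 to 142000000 changed by -11.0, from 49.2 to 38.2, with line 1 between 41.1 and 45.3. The window on chromosome 14 from 80000001 to 81000000 changed by -10.4, from 46.1 to 35.7, with line 1 between 38.8 and 43.9. On chromosome 3, the window from 77000001 to 78000000 changed by -10.2, from 49.9 to 39.7, with line 1 between 40.5 and 47.4, in a stretch of 7 windows from 71000001 to 78000000. All 6 of the lowest regions had a CT22 value above every line 1 array. With adjacent windows of one direction merged, the windows past the line 1 range formed 259 higher and 255 lower regions.

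On chromosome 7 the size of the change by rank was within that of line 1 pairs. The SD over 133 windows was 3.15 rank points, against 2.48 to 3.62 in line 1 pairs and 3.18 in the line 2 pair, and the Bmal1-/- arrays correlated at r = 0.969, against 0.967 to 0.985. In 17 windows (12.8% of 133) the change exceeded 5 rank points, against 6 to 28 in line 1 pairs. Past the line 1 range, 25 windows (18.8%) were higher and 6 (4.51%) lower at CT34. In the line 2 pair 28 (21.1%) were higher and 4 (3.01%) lower. The Bmal1-/- split depended on the scale too: it was 70 to 0 with log2 ratios centred on the median probe, 51 to 0 with ratios centred on the median window off chromosome 7 and 14 to 11 with the median rank of a window. All arrays were also scaled to one SD off chromosome 7, the mean of the line 1 arrays. This stretches CT22 (SD 5.07) and shrinks CT34 (SD 7.65). The split was then 3 to 80, with an SD of the change of 6.84 against 2.55 to 4.18 in line 1 pairs, past all of them.

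The centre of the contact peak was the window from 45200001 to 45300000 in the mean of all 9 arrays. Both Bmal1-/- arrays, and line 2 at CT22, peaked in the neighbouring window, from 45300001 to 45400000. The neighbours of Dbp in the GRCm38.p6 annotation are Car11 and Sphk2, and that assembly's coordinates were not combined with those of the files.

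Within 1 Mb of the peak (276 probes) the mean rank was 97.4 at CT22 and 95.8 at CT34 in Bmal1-/-, and 97.3, 96.8, 97.1, 97.2 and 97.7 in line 1 in order of time. CT22 lay among the line 1 arrays and CT34 below all of them, a change of -1.54 against a line 1 range of 0.85. It was found on both sides, with -1.47 on the centromere-proximal and -1.60 on the distal side. The share of probes above the 95th percentile went from 89.9% to 81.5%, a change of -8.33 percentage points against a line 1 range of 2.17. On the log2 scale the means were 3.97 and 3.68, and the change of -0.29 was within the line 1 range of 0.45. It was also within the range (-5.10 against 7.87) with probes high on the line 1 CT34 array left out.

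From 1 to 50 Mb no distance bin passed the line 1 range by rank, whereas on log2 ratios 4 of the 5 bins did, under either centring. The log2 ratios of CT34 spread more widely (SD 1.10) than those of CT22 (0.92) and line 1 (0.82 to 0.93). Neither centring removes this, and what it adds to the log2 changes was not tested. The same limit holds for the other log2 values given for chromosome 7 and for whole autosomes. Between 1 and 2 Mb the Bmal1-/- ranks were 90.0 and 90.2, a change of 0.17 against a range of 1.59, and both lay below the line 1 arrays at 91.2 to 92.8. The sides differed there: the centromere-proximal side changed by 1.73 against a range of 0.94, and the distal side by -1.36 against 2.24. Between 2 and 5 Mb the ranks were 73.8 at each time, a change of 0.03, and the log2 ratio changed by 0.26 (range 0.19).

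Farther out the Bmal1-/- arrays differed by rank less than the line 1 arrays did among themselves. Between 5 and 10 Mb they had 67.1 and 67.9, a change of 0.81, with line 1 at 62.7 to 64.6. Between 10 and 20 Mb they had 74.0 and 74.6, a change of 0.57 against a range of 1.29, which falls to 0.46 without the line 1 CT26 array. Between 20 and 50 Mb they had 72.1 and 72.8, a change of 0.69, with line 1 at 69.4 to 71.1. In these 3 bins both Bmal1-/- ranks were above all 5 line 1 arrays. On log2 ratios centred on the median probe the same bins changed by 0.29, 0.24 and 0.30, past the line 1 ranges of 0.091, 0.16 and 0.18, and with ratios centred on the median window off chromosome 7 they passed as well.

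The bin from 50 to 100 Mb, all of it distal, behaved otherwise. Its 7761 probes averaged 69.4 at CT22 and 72.1 at CT34 in Bmal1-/-, and 72.2, 72.0, 72.4, 71.4 and 72.2 in line 1. CT22 lay below all line 1 arrays and CT34 among them, a change of 2.71 against a range of 0.99. The change was 0.34 on the log2 scale (range 0.16). As a share of probes above the 95th percentile it was 2.96 percentage points, from 29.8% to 32.8%, within the range of 3.27.

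**Figure D3:**
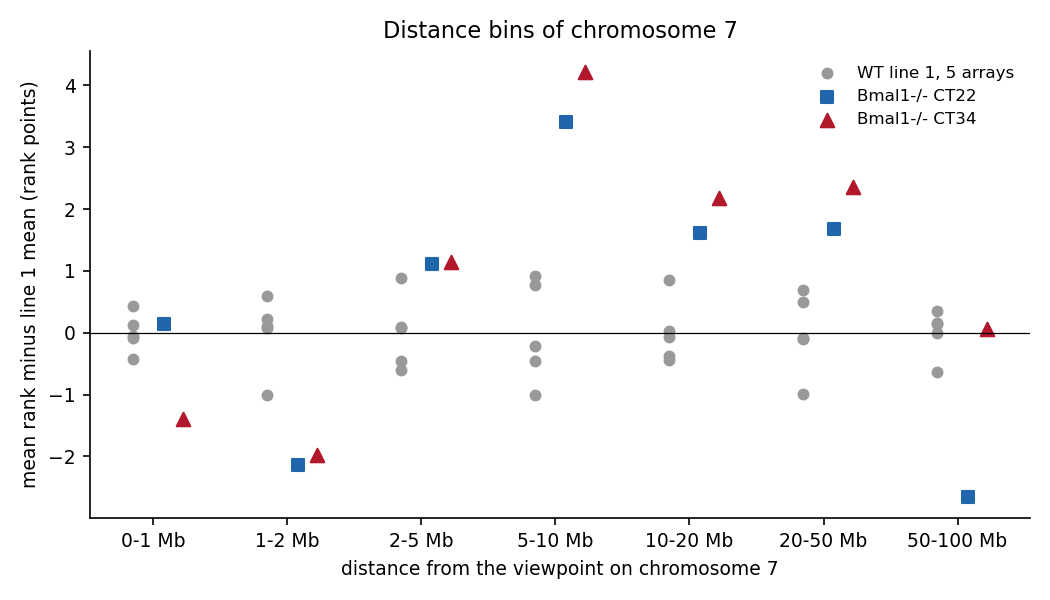
Mean percentile rank per distance bin of chromosome 7, minus the mean of the 5 WT line 1 arrays, in rank points. Grey points are the line 1 arrays, blue squares Bmal1-/- CT22 and red triangles Bmal1-/- CT34. The Bmal1-/- arrays part within 1 Mb, where CT34 is lower by 1.54, and beyond 50 Mb, where CT34 is higher by 2.71.

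In steps of 10 Mb, the change beyond 50 Mb lay in its outer part. The step from 50 to 60 Mb changed by 1.11 and that from 60 to 70 Mb by 0.82, both within the line 1 range. The step from 70 to 80 Mb changed by 4.23, from 57.7 to 61.9, with line 1 at 61.2 to 63.9. The next, up to 90 Mb, changed by 2.62, from 76.5 to 79.1, with line 1 at 77.5 to 79.7, and the last, up to 100 Mb, by 4.73, from 66.3 to 71.0, with line 1 at 70.3 to 71.1. In each of these 3 steps CT22 was below all line 1 arrays and CT34 within their span. No other step of the chromosome passed the line 1 range.

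Of the 25 windows of chromosome 7 that were higher past the line 1 range, 12 lay beyond 70 Mb, where 30 of the 133 windows lie. The window from 119000001 to 120000000, 74.3 Mb from the peak, had 53.1 at CT22 and 63.3 at CT34, and 60.1, 54.9, 60.3, 61.1 and 61.3 in line 1. The change was 10.1 against a range of 6.40, with CT22 below and CT34 above all line 1 arrays, in a stretch of 4 windows from 118000001 to 122000000. The window from 138000001 to 139000000, 93.3 Mb away, had 46.3 and 56.4, a change of 10.1, and 56.4, 57.7, 55.6, 57.1 and 57.0 in line 1, a range of 2.11. CT22 was far below the line 1 arrays and CT34 among them, in a stretch of 5 windows from 136000001 to 141000000.

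The other 3 windows named here were single ones. The window from 68000001 to 69000000, 23.3 Mb away, changed by 9.06, from 60.5 to 69.5, with line 1 between 66.2 and 70.2. The window from 96000001 to 97000000 changed by 7.98, from 68.3 to 76.2, with line 1 between 72.5 and 75.8. The window from 50000001 to 51000000, 5.25 Mb away, changed by 7.33, from 53.1 to 60.4, with line 1 between 53.7 and 59.4. CT22 was below every line 1 array in all 5 of these windows.

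The 6 lower windows of chromosome 7 formed 6 separate regions. The window from 85000001 to 86000000 (91 probes) changed by -6.78, from 59.5 to 52.7, with line 1 at 49.2, 49.6, 47.5, 49.3 and 46.2, so both Bmal1-/- values were above line 1. The window from 42000001 to 43000000 (70 probes) changed by -6.28, from 73.5 to 67.2, with line 1 between 69.1 and 71.3. The window from 103000001 to 104000000 changed by -6.02, from 51.4 to 45.3, with line 1 between 46.0 and 50.2. The window from 107000001 to 108000000 changed by -4.30, from 53.2 to 48.9, with line 1 between 51.4 and 54.4. The window from 44000001 to 45000000, next to the peak, changed by -2.06, from 96.3 to 94.2, with line 1 between 96.6 and 97.2.

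**Figure D4:**
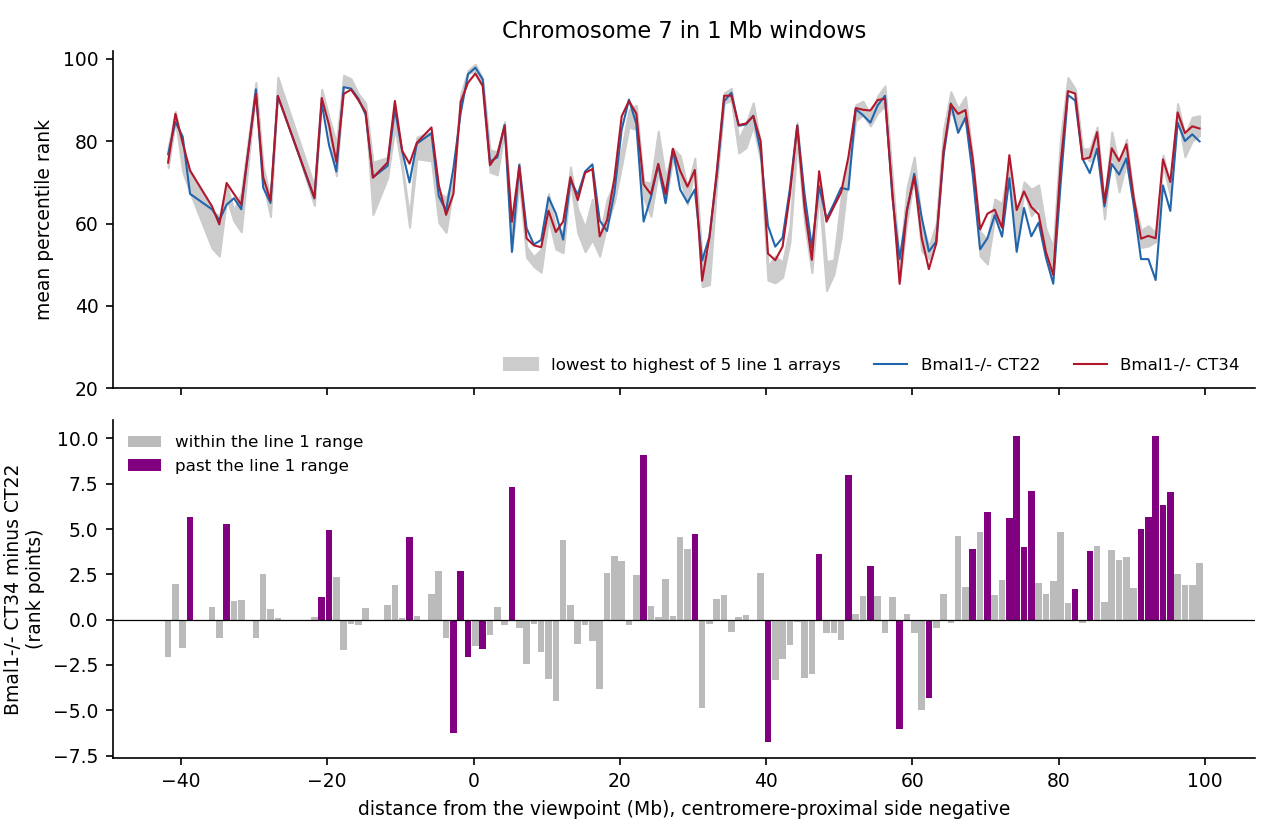
Chromosome 7 in 1 Mb windows by distance from the viewpoint in Mb, with the centromere-proximal side negative. The upper part gives the mean percentile rank in Bmal1-/- CT22 (blue) and CT34 (red) over the span of the 5 WT line 1 arrays (grey), and the lower part the Bmal1-/- change in rank points, purple where it passes the line 1 range. Of the 31 purple bars, 25 point up, 12 of these among the 30 windows beyond 70 Mb.

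Over whole chromosomes, 8 of 19 autosomes changed past the line 1 range by rank, 5 higher and 3 lower at CT34. This tally depended on the scale: 17 were higher and 0 lower with log2 ratios centred on the median probe, 13 higher and 1 lower with ratios centred on the median window off chromosome 7, and 1 higher and 1 lower by the share of probes above the 95th percentile. Chromosome 7 went from 71.6 to 73.0, with line 1 at 71.6, 72.0, 71.8, 71.0 and 71.7, a change of 1.43 against a range of 1.03. CT22 lay among the line 1 arrays and CT34 above them. The change was 0.29 on the log2 scale (range 0.16), and 1.38 percentage points as a share of probes above the 95th percentile, from 32.2% to 33.5%, within the range of 2.49.

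Chromosome 11 had the largest change by rank, from 51.7 to 53.6, with line 1 at 52.9, 52.6, 53.3, 52.8 and 53.4. The change of 1.90 compared with a range of 0.80, and CT22 was below and CT34 above all line 1 arrays. On log2 ratios it changed by 0.17 and chromosome 7 by more. The other higher autosomes were chromosome 17 (1.17, from 49.8 to 51.0), chromosome 9 (1.16, from 49.8 to 51.0) and chromosome 8 (1.04, from 46.7 to 47.7). Chromosome 9 was below all line 1 arrays at each time, at 51.4 to 52.3 in line 1.

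Among the lower autosomes, chromosome 3 went from 49.1 to 47.5, a change of -1.62 against a range of 1.02, with line 1 at 48.1, 48.7, 47.7, 48.1 and 48.1. CT22 was above and CT34 below all line 1 arrays. Chromosome 14 changed by -0.86 (range 0.82) and chromosome 1 by -0.54 (range 0.50), both just past the line 1 range. On log2 ratios centred on the median probe these 3 had changes of 0.04, 0.06 and 0.06, of the other sign, and with ratios centred on the median window off chromosome 7 they had -0.027, -0.0067 and -0.0047. As a share of probes above the 95th percentile, chromosome 17 was higher, with 5.97% at CT22 and 6.48% at CT34, and chromosome 16 lower, with 5.06% and 4.60%, and these were the 2 autosomes past the line 1 range.

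**Figure D5:**
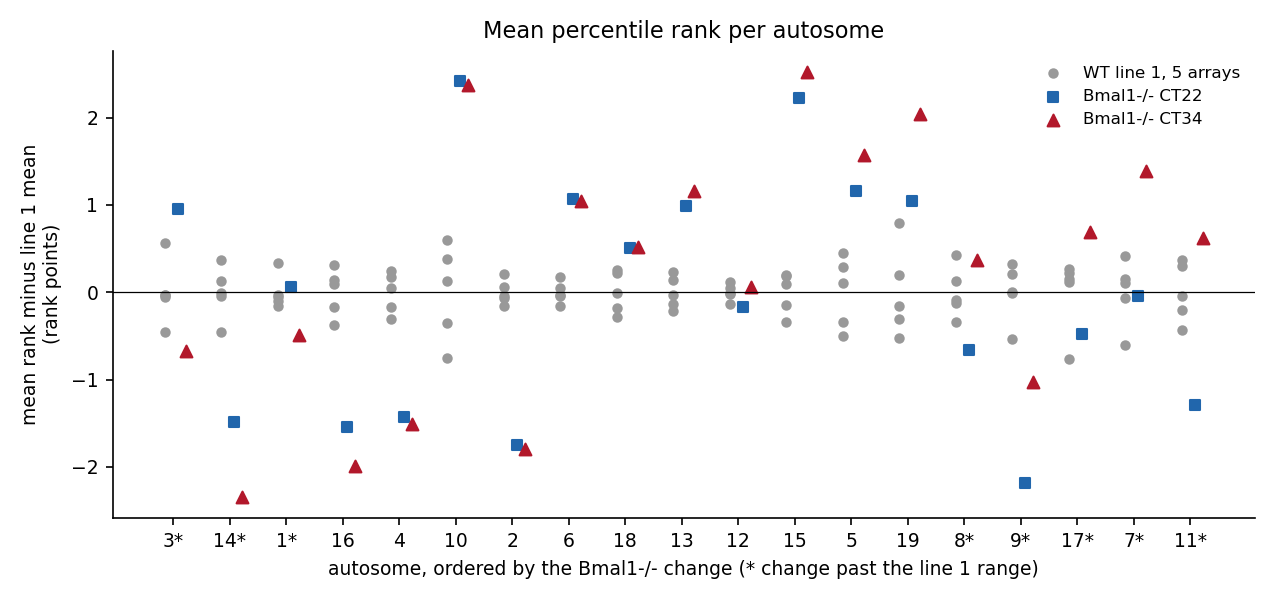
Mean percentile rank per autosome minus the mean of the 5 WT line 1 arrays, in rank points, with autosomes ordered by the Bmal1-/- change and an asterisk where it passes the line 1 range. Grey points are the line 1 arrays, blue squares Bmal1-/- CT22 and red triangles Bmal1-/- CT34. The change runs from -1.62 on chromosome 3 to 1.90 on chromosome 11, and on many autosomes both Bmal1-/- arrays lie on the same side of line 1.

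On 12 of the 19 autosomes both Bmal1-/- arrays lay outside the line 1 span on the same side, 7 above it and 5 below it, and on 10 of these 12 the change by rank was within the line 1 range. Of those 10, 3 stayed within it on log2 ratios centred on the median window off chromosome 7, and 0 on ratios centred on the median probe. Chromosome 10 had 48.6 and 48.5 in Bmal1-/- and 45.4 to 46.7 in line 1. Chromosome 2 had 48.1 at each time and 49.7 to 50.1 in line 1, and chromosome 15 had 49.7 and 50.0 against 47.1 to 47.7. By rank the 3 chromosomes changed by -0.05, -0.05 and 0.30, within the line 1 ranges of 1.35, 0.37 and 0.53. With median-window log2 ratios chromosomes 10 and 15 passed theirs (0.040 against 0.027, and 0.053 against 0.018).

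Within chromosomes the change varied more than between them. Of 121 bins of 20 Mb off chromosome 7, 38 were higher and 34 lower past the line 1 range, from -4.94 to 7.04. The highest was chromosome 8 from 120 to 140 Mb, at 52.9 and 59.9, with line 1 between 55.9 and 60.0. Chromosome 4 from 140 to 160 Mb followed with 6.06, from 48.6 to 54.6, both below line 1 at 58.3 to 61.3. The lowest was chromosome 14 from 80 to 100 Mb, from 45.7 to 40.8, with line 1 between 41.3 and 44.8.

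In the last 5 Mb covered by probes on the 18 other autosomes, the median change was 2.71, 13 were higher and 5 lower, and 8 and 4 of these passed the line 1 range. The largest were chromosome 4 (7.94, from 47.7 to 55.7) and chromosome 11 (7.74, from 58.9 to 66.7), and the lowest was chromosome 18 (-6.16, from 45.8 to 39.6). The first 5 Mb had a median change of -0.01, with 3 higher and 1 lower past the line 1 range. Line 1 averaged 61.5 on the last 5 Mb of chromosome 4 and 65.0 on that of chromosome 11, but 40.7 on that of chromosome 18, so these ends too were higher where line 1 ranks high and lower where it ranks low.

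The 112 highest windows off chromosome 7, 5% of them, were taken in each array as the strongest contacts on other chromosomes. The Bmal1-/- arrays shared 79 (70.5%), against 85 to 93 (75.9% to 83.0%) in line 1 pairs. The line 2 pair shared fewer, 69 (61.6%). Chromosome 11 held the most shared windows, 18 of 79, followed by chromosome 17 with 9. These chromosomes have 119 and 92 of the 2237 windows. In the line 1 lists of 112, chromosome 11 held 18 to 24 and chromosome 17 held 11 to 12. Of the 33 windows in the CT22 list alone, 15 were in the list of any line 1 array, and of the 33 in the CT34 list alone, 28 were. At 5% the share was below all line 1 pairs, and at other settings it was not: it was 60.0% for the highest 2% (line 1 pairs 60.0% to 71.1%), 77.2% for the highest 10% (76.3% to 86.2%) and 62.5% by the share of high probes (58.0% to 71.4%).

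The Bmal1-/- change was set beside the CT34 minus CT22 change of each WT line, and the 3 differences share no array. Off chromosome 7 it correlated with the line 1 change at r = 0.166 and with the line 2 change at r = -0.03 over 2237 windows. Neither sign held throughout: the first was -0.11 with probes high on line 1 CT34 left out, and the second 0.13 on log2 ratios. On chromosome 7 the values were 0.022 and 0.138 over 133 windows. Where Bmal1-/- was higher past the line 1 range off chromosome 7, its median change was 5.87 and that of line 1 was 0.65 and of line 2 -0.08. Where it was lower, the medians were -5.80, -0.64 and 0.30. By rank the line 1 medians thus had the same signs and were far smaller, and those of line 2 had the opposite signs. The line 1 arrays at CT22 and CT34 also enter the range that chose these windows.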

How the data were processed

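The deposited files hold 1 log2 ratio of Cy5 (4C DNA) over Cy3 (digested genomic DNA) per 59-nt probe and array, made with NimbleScan and centred on a biweight mean, per the file headers. That the base of the log is 2 follows NimbleScan's convention and is not written in the files. No source used here names the build of the genome, the background correction or any filter. On 9 of 19 autosomes the last probe lies beyond the last gene of GRCm38.p6, so no coordinates of that assembly were used.

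Ranks, windows, the change and the line 1 range were computed as the report describes, in Python 3.11.15 (numpy 2.4.6 and pandas 2.3.3; ranks from scipy 1.17.1, plots from matplotlib 3.10.9), and tested on simulated data. The viewpoint was set where the mean signal, smoothed over 11 windows of 100 kb, peaked. Depth has no counterpart on arrays, and 1 array per Bmal1-/- time limits the precision, so values have no error of their own and the line 1 arrays serve as the yardstick.

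Windows were named by rule: off chromosome 7 the 6 highest and 6 lowest, on it the 5 highest and 5 lowest changes past the line 1 range, with adjacent windows merged, beside every distance bin and every autosome past that range. The comparison, its lists and its alternatives were chosen with earlier results of these data known. Chromosomes numbered 20 and 21 in the files stayed out of the windows. Alternatives were log2 ratios in place of ranks, the share of high probes, ranks over the 18 other autosomes, window medians, windows of 500 kb and 2 Mb, at least 100 probes, other sizes of change, probes high on line 1 CT34 left out, and line 1 arrays left out in turn. Removal of the level-related part, scaling to one SD, centring on the median window and the count of line 2 windows past the line 1 range were added after seeing the data.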

Additional observations from a re-analysis of the deposited data

Results flagged for a closer look

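In 61 distance bins, autosomes and named windows, the highest or lowest of the 5 line 1 arrays stood far from its neighbour in 8, and chance gives this in about 1 group in 20. The CT26 array was the distant one in 4. It was high between 2 and 5 Mb distal of the viewpoint (78.0, next 76.3) and between 10 and 20 Mb distal (63.2, next 61.8), and low on chromosome 17 (49.5, next 50.4) and in the window from 119000001 on chromosome 7 (54.9, next 60.1). The CT34 array was high on chromosome 1 (48.1, next 47.7) and low in the windows from 80000001 on chromosome 10 (70.4, next 75.7) and from 50000001 on chromosome 7 (53.7, next 57.7). The CT46 array was low between 1 and 2 Mb distal of the viewpoint (90.9, next 92.6).

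In 12 of the 61 the Bmal1-/- change had one sign and the changes of both WT lines the other. The difference was not tested, as each line has 1 array per time, and several of these changes are small. The number to be met if the signs were unrelated was not worked out, so 12 is not shown to exceed chance. The 61 items also overlap, as bins, their sides, chromosomes and windows share probes. The bin from 50 to 100 Mb, all of it distal, entered both as a whole and as a side. On chromosome 7 the changes in Bmal1-/-, line 1 and line 2 were 0.17, -0.51 and -0.56 between 1 and 2 Mb, 1.73, -0.87 and -3.17 on the centromere-proximal side of that bin, and -1.60, 0.068 and 0.18 on the distal side within 1 Mb. For whole chromosomes they were -0.54, 0.39 and 0.0022 on chromosome 1, and for chromosome 11 they were 1.90, -0.17 and -0.21. Chromosome 13 had 0.17, -0.079 and -0.41. Chromosome 15 had 0.30, -0.44 and -0.12, and chromosome 19 had 0.998, -0.21 and -0.0097. For windows they were -11.3, 1.33 and 0.38 from 47000001 on chromosome 15, -11.0, 0.30 and 1.58 from 141000001 on chromosome 1, 7.98, -0.75 and -1.03 from 96000001 on chromosome 7, and -4.30, 1.54 and 2.95 from 107000001 on chromosome 7.

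Chromosomes numbered 20 and 21 in the files entered no comparison, and no header assigns X or Y to these numbers. Chromosome 20 (20277 probes) went from 48.5 to 45.2 in Bmal1-/-, a change of -3.30, with line 1 between 46.1 and 48.1, so that CT22 was above and CT34 below all line 1 arrays. Chromosome 21 (235 probes) went from 60.9 to 53.7, a change of -7.14, with line 1 between 55.7 and 58.5.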

How the results depend on the processing

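No paired analysis was possible because each Bmal1-/- time has 1 array and no result comes from a test. A change is the same whichever line 1 array is left out, and only the line 1 range beside it moves. Window counts were expressed as percentages after values had been seen, since window sizes change their number. Of 203 values of the main results under other settings 143 stayed within the spread or within 1.5 times, counting those that a left-out line 1 array cannot move, and 60 moved. For single chromosomes 127 of 180 stayed, 50 moved and 3 had the other sign. The 127 also count, for each chromosome, the values that a left-out line 1 array cannot move. Among the single-chromosome values that could move, more moved than stayed.

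Off chromosome 7 the percentages past the line 1 range, higher and lower, were 31.6 and 5.45 with log2 ratios centred on the median probe, 5.01 and 6.66 by the share of high probes, 7.06 and 7.29 with the range over all 7 WT arrays, and 10.1 and 8.67 with the level-related part removed. Over 5 rank points they were 46.1 with window medians and 10.2 with the level part removed, and 53.2 and 1.52 at 3 and 10 rank points. With windows of 500 kb 620 and 706 of 4459 passed, and with 2 Mb 229 and 245 of 1132. The SD over the median of line 1 pairs was 1.71, and 1.50 with 500 kb, 1.96 with 2 Mb and 1.26 with the level part removed. Without 1 line 1 array it was 1.52 to 1.86, and the percentages were 19.1 to 23.6 higher and 20.4 to 24.8 lower.

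On chromosome 7 they were 52.6 and 0 with median-probe log2 ratios, 38.3 and 0 with median-window ratios, 10.5 and 8.27 with window medians, 2.26 and 60.2 with scaled arrays, and 4.51 and 1.50 with all 7 WT arrays. By the share of high probes 8.27 were higher, and with 2 Mb 2.86 were lower (13 and 2 of 70 windows, and 43 and 15 of 262 with 500 kb). Over 5 rank points they were 24.1 with window medians, 21.0 with 500 kb, 22.9 without probes high on line 1 CT34 and 79.7 with scaled arrays, and 34.6 and 1.50 at 3 and 10 rank points. The SD over the line 1 median was 2.14 with scaled arrays, and 1.10 to 1.19 without 1 line 1 array. The percentages were then 21.8 to 24.1 higher and 5.26 to 9.02 lower, the last without CT26.

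By distance, log2 changes centred on the median probe were -0.29, 0.26, 0.29, 0.24, 0.30 and 0.34 at 0-1, 2-5, 5-10, 10-20, 20-50 and 50-100 Mb, and centred on the median window -0.36, 0.19, 0.22, 0.17 and 0.23 for the first 5 of these and 0.22 for chromosome 7. All of these but 0-1 Mb passed the line 1 range, where ranks passed it at 0-1 and 50-100 Mb. Shares of high probes changed by -8.33, -4.41, -1.75 and 2.96 percentage points at 0-1, 1-2, 2-5 and 50-100 Mb and by 1.38 on chromosome 7. Of these, the changes at 0-1 and 1-2 Mb passed the line 1 range. Without probes high on line 1 CT34, and without that array in the range, which that choice truncates (decided after values were seen), 0-1 Mb changed by -5.10 and 50-100 Mb by 3.24. Without CT26 the bin from 10 to 20 Mb passed the range, without CT26 or CT30 chromosome 12 did (0.23), and without CT30 chromosome 19 (0.998). Chromosomes 1, 3 and 14 had 0.064, 0.042 and 0.062 on the median-probe log2 scale.

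The highest windows shared by the Bmal1-/- arrays were 77.2% at 10%, 60.0% at 2% and 62.5% by high probes. The correlation with the line 1 change was -0.11 without probes high on line 1 CT34, and that with the line 2 change 0.13 on log2 ratios. With 1 array per time, the spread of the Bmal1-/- line itself is not known, and differences between times cannot be told apart from differences between arrays.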
